A study of Sus scrofa with 8 samples.

Results

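The genes described here are 10 nuclear receptors of the liver: PPARA, PPARG, RXRA, NR1H3, NR1H4, NR1I2, NR1I3, HNF4A, ESR1 and THRB. A probe set, the array's group of short probes for a transcript, was taken when the array annotation gave exactly 1 symbol and that symbol was one of the 10. This found 13 probe sets of 24123 on the array, for 8 of the 10 genes. HNF4A, NR1I2, RXRA, THRB and PPARA had 2 probe sets each, NR1H3, ESR1 and PPARG had 1 each, and none of the probe sets used here carried the symbol NR1H4 or NR1I3. The arrays measured liver RNA of 4 Korean native pigs (KNP), an indigenous breed, at 7 months of age, and of 4 Yorkshire pigs (YS), a commercial breed, at 6 months of age. The animals were kept alike, each gave RNA from the end of its largest liver lobe, and each was measured on 1 Affymetrix porcine array. Breed and age cannot be told apart, and the sources used here do not give the sex of the animals. The comparison asks whether liver transcripts differ in level between the breeds.

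Nuclear receptors are transcription factors, most of which are switched by small fat-soluble molecules that bind inside the protein. In the liver they couple the supply of fatty acids, sterols, bile acids, hormones and foreign compounds to the genes that burn, make, export or detoxify them. RXRA is the shared partner: PPARA, PPARG, NR1H3 (LXR alpha), NR1H4 (FXR), NR1I2 (PXR), NR1I3 (CAR) and THRB bind DNA as pairs with a retinoid X receptor, whereas HNF4A and ESR1 bind as pairs of their own kind. Their activity depends on ligand as well as on the amount of protein, and an array measures the transcript alone.

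No receptor was called different between the breeds. Of the 13 probe sets, 0 had an adjusted p under 0.05 by limma. Of the 14399 probe sets tested on the array, 1.03% were called, 0.424% higher and 0.611% lower in KNP, and in the fit without the filter, used for dim probe sets, 0.146% of 23999. At an unadjusted p under 0.05 the receptors had 2 probe sets, and the array as a whole 15.1%. HNF4A, the master regulator of the hepatocyte, had the largest difference towards lower values in KNP among the probe sets tested, and NR1H3, the sterol sensor, the largest towards higher values. In these 2 probe sets, and in no other of the 13, the KNP and YS values did not overlap. On the array as a whole 9.68% of the probe sets tested showed such a separation, 4.01% with KNP higher and 5.67% with KNP lower. Of the 13, 7 passed the filter on dim signals, which leaves out the lower 40% of probe sets by mean. The other 6, among them both probe sets of PPARA and the one of PPARG, lay below the median intensity of the array on all 8 arrays. Only 4 of the 13 lay above that median on all 8 arrays: both of HNF4A, NR1H3 and the brighter one of NR1I2.

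**Figure D1:**
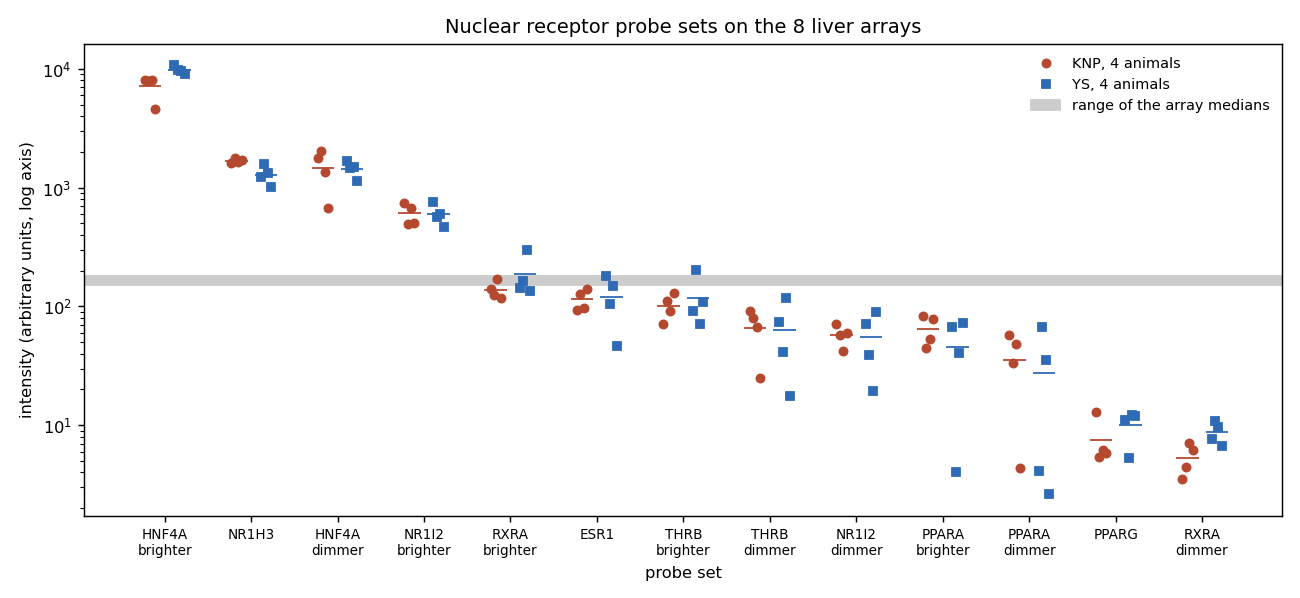
Intensity of the 13 receptor probe sets (log axis, arbitrary units) in each animal, KNP as circles left of YS as squares, with the mean of each breed as a short line and the range of the array medians as a grey band. The probe sets run from bright to dim. Only the brighter HNF4A probe set and NR1H3 separate the breeds, and both PPARA probe sets and PPARG lie under the grey band on every array. Heights of different probe sets cannot be set against each other, since each binds its target with its own strength.

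HNF4A is an orphan receptor bound to the promoters of a large share of liver-specific genes, including those of apolipoproteins, transport proteins and clotting factors. Its brighter probe set had intensities of 7972, 7888, 8091 and 4599 in KNP replicates 1 to 4, and of 10669, 9696, 9636 and 8988 in YS replicates 1 to 4. Every KNP animal lay below every YS animal, and KNP replicate 4 lay well below the other KNP animals. The means were 7138 ± 1694 in KNP and 9747 ± 693 in YS (SD, n = 4 per breed). The log2 difference, KNP minus YS, was −0.48 (SE 0.19, 95% interval −0.89 to −0.07), which corresponds to 0.715 times the YS level, and its adjusted p by limma was 0.253. Without KNP replicate 4 the difference was −0.28, with an adjusted p of 0.290.

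The dimmer HNF4A probe set did not separate the breeds. It had intensities of 1773, 2051, 1350 and 680 in KNP and of 1683, 1461, 1502 and 1126 in YS, and again KNP replicate 4 was the lowest of all 8 animals. Its log2 difference was −0.08 (SE 0.30, 95% interval −0.74 to 0.58; adjusted p = 0.931 by limma), and 0.25 without KNP replicate 4. The log2 ratio of the brighter to the dimmer probe set, a comparison chosen after the values were seen, averaged 2.35 ± 0.37 in KNP and 2.75 ± 0.15 in YS (SD, n = 4 per breed; two-sided exact permutation p = 0.114, adjusted p = 0.212 over 13 array measures). The unequal differences of the probe sets were thus not separated from the spread between animals. Their log2 values had r = 0.72 over the 8 arrays. This r leans on KNP replicate 4, the lowest animal in both probe sets, and a value without that animal is not given.

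The 250 tested probe sets within 0.5 log2 units of the mean of the brighter HNF4A probe set had a median difference of −0.13, and 11.2% of them had a lower difference than HNF4A. After quantile normalization, which gives all arrays 1 distribution, the HNF4A difference was −0.40 (adjusted p = 0.329). The summed intensity of 9 hepatocyte markers on the array, of 10 listed, ran from 283708 to 332781 in KNP and from 433294 to 458610 in YS without overlap, and 0 of the 9 were dim. The median difference of these markers was −0.53, with 1 of 9 positive and 5 called lower by limma, and after quantile normalization it was 0.02, with 6 of 9 positive and 0 called. Probe sets as bright as ALB, albumin, had a median difference of −0.61, beside −0.69 for ALB itself. Of these markers 6 are also in the list of HNF4A targets. The part of brightness or of hepatocyte content in the HNF4A difference was not tested. In bulk tissue, fewer cells of a type and less RNA per cell cannot be told apart.

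NR1H3 responds to oxidized cholesterol and turns on sterol efflux and, through SREBF1, fat synthesis; besides hepatocytes, macrophages use it. It had intensities of 1605, 1767, 1647 and 1718 in KNP and of 1222, 1573, 1324 and 1004 in YS. The KNP animals lay close together, with a highest value 1.10 times the lowest, and all stood above the highest YS animal, replicate 2. The YS animals spread more widely, with a ratio of 1.57. The means were 1684 ± 71.9 in KNP and 1281 ± 236 in YS (SD, n = 4 per breed). The log2 difference was 0.41 (SE 0.16, 95% interval 0.05 to 0.76), or 1.33 times the YS level, with an adjusted p of 0.268 by limma. It stayed positive when each animal was left out in turn, between 0.30 and 0.51, though groups that do not overlap fix that direction.

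The 1602 tested probe sets within 0.5 log2 units of the mean of NR1H3 had a median difference of 0.04, and 89.2% of them had a lower difference than NR1H3. After quantile normalization its difference was 0.35 (adjusted p = 0.361). The summed intensity of 7 Kupffer cell and macrophage markers on the array, of 10 listed, ran from 24724 to 28806 in KNP and from 18027 to 25968 in YS, overlapping (two-sided exact permutation p = 0.257, n = 4 per breed), and 1 of the 7 was dim on all arrays. Of the 6 tested, 5 had a positive difference, with a median of 0.44, and 0 were called; after quantile normalization 6 were positive, with a median of 0.39. The part of brightness or of macrophage content in the NR1H3 difference was not tested.

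**Figure D2:**
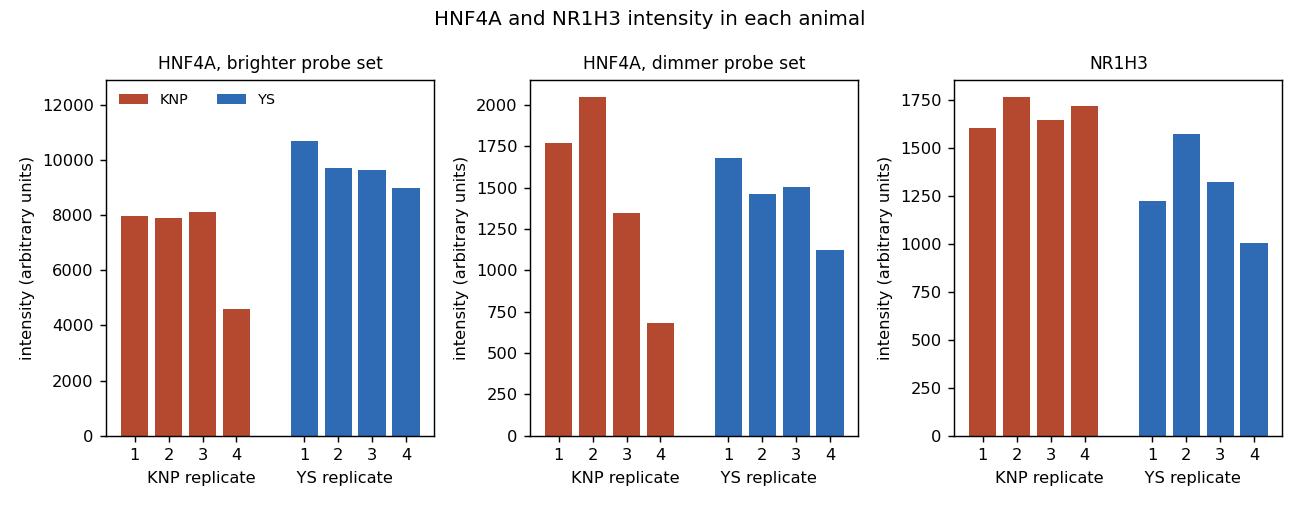
Intensity (arbitrary units, bars from 0) of the 2 HNF4A probe sets and of NR1H3 in each animal, KNP replicates left and YS replicates right. KNP replicate 4 is the lowest bar in both HNF4A panels, at 4599 and 680, and the 4 KNP bars of NR1H3, 1605 to 1767, all exceed the highest YS bar at 1573.

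NR1I2, the pregnane X receptor, senses drugs, steroids and bile acids and induces CYP3A enzymes. Its brighter probe set had intensities of 748, 495, 677 and 502 in KNP and of 751, 564, 598 and 462 in YS. Both breeds held the same range, with means of 606 ± 127 in KNP and 594 ± 120 in YS (SD, n = 4 per breed). The log2 difference was 0.03 (SE 0.20, adjusted p = 0.968 by limma). Its 95% interval, −0.42 to 0.47, leaves room for a level between 0.747 and 1.39 times that of YS. The dimmer probe set ran from 41.8 to 71.2 in KNP and from 19.4 to 89.9 in YS, below the array median on all 8 arrays.

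RXRA, the common partner, had a brighter probe set with intensities of 141, 125, 170 and 118 in KNP and of 143, 163, 301 and 135 in YS. YS replicate 3 stood above the other 7 animals, which overlapped. The log2 difference was −0.33 (SE 0.27, 95% interval −0.93 to 0.27; adjusted p = 0.609 by limma), and −0.09 without YS replicate 3. The probe set lay below the array median on 5 of 8 arrays. The dimmer RXRA probe set ran from 3.54 to 7.13 in KNP and from 6.64 to 10.8 in YS. These values lie far below the array medians, which ran from 152 to 169 in KNP and from 153 to 179 in YS, and in that range other probe sets also stood lower in KNP. The 1599 probe sets within 0.5 log2 units of it had a median difference of −0.17, beside its own difference of −0.21 in the fit without the filter.

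ESR1, the oestrogen receptor alpha, mediates hepatic responses to oestrogen. Its probe set had intensities of 94.1, 126, 96.1 and 141 in KNP and of 181, 105, 148 and 46.0 in YS. The KNP values lay inside the YS range, and YS replicate 4 was the lowest animal. The log2 difference of 0.05 had an SE of 0.36 (95% interval −0.75 to 0.84, adjusted p = 0.969 by limma) and turned to −0.29 without YS replicate 4.

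THRB, the main thyroid hormone receptor of the liver, was as variable. Its brighter probe set had intensities of 71.7, 110, 92.3 and 130 in KNP and of 92.2, 201, 71.2 and 109 in YS, with YS replicate 2 the highest. The log2 difference was −0.13 (SE 0.33, 95% interval −0.86 to 0.59; adjusted p = 0.882 by limma), and it turned to 0.02 after quantile normalization. The dimmer THRB probe set had a difference of opposite sign, 0.15, in the fit without the filter. THRB was the only one of the 5 genes with 2 probe sets whose differences had opposite signs.

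PPARA switches on fatty acid oxidation and ketone synthesis in the fasted liver, and PPARG drives fat storage, chiefly in adipose tissue. The brighter PPARA probe set had intensities of 82.4, 44.4, 53.2 and 78.6 in KNP and of 66.6, 4.04, 40.6 and 72.3 in YS. Apart from YS replicate 2 the animals shared one range. Its log2 difference was 0.56 (SE 0.47, 95% interval −0.47 to 1.59; adjusted p = 0.649 by limma without the filter), and 0.08 without YS replicate 2. The dimmer PPARA probe set swung between 4.33 and 57.3 in KNP and between 2.63 and 66.7 in YS, and the animals that were low in it differed from the one that was low in the brighter probe set. PPARG had intensities of 12.9, 5.43, 6.15 and 5.82 in KNP and of 11.1, 5.31, 12.1 and 11.9 in YS. The 95% interval of its log2 difference ran from −0.76 to 0.46 around −0.15, and at such low signals no level of PPARG is given. The 4 adipocyte markers on the array, of 6 listed, summed to between 139 and 346 in KNP and between 271 and 469 in YS, and 0 of them passed the filter.

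**Figure D3:**
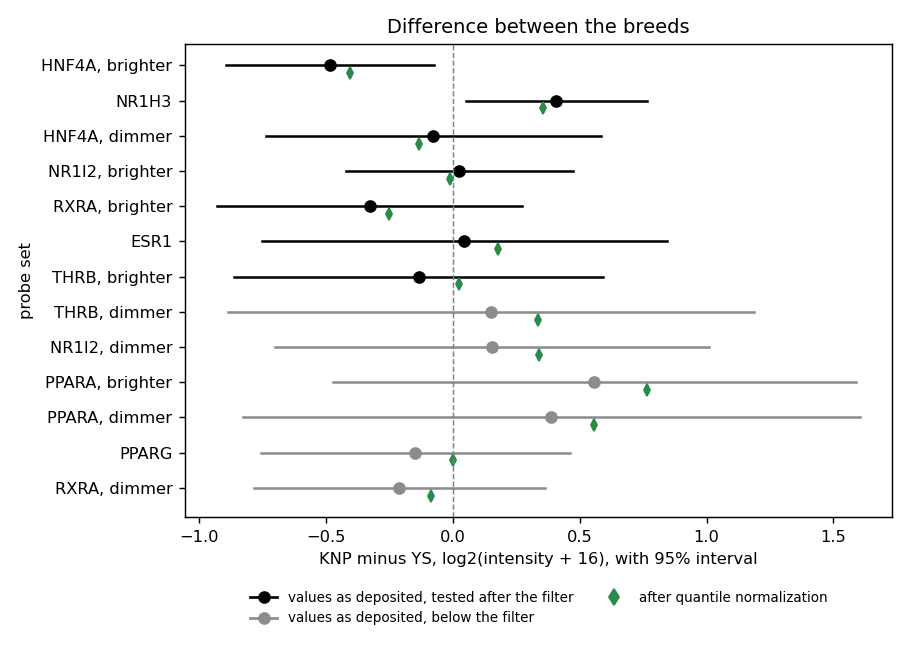
Log2 difference of each receptor probe set, KNP minus YS, with its 95% interval (not adjusted for the number of probe sets), bright to dim from the top. Black marks probe sets tested after the filter, grey those below it, and green diamonds give the difference after quantile normalization. Only the intervals of the brighter HNF4A probe set (−0.89 to −0.07) and of NR1H3 (0.05 to 0.76) leave out 0, and the widest interval, −0.83 to 1.61, is that of the dimmer PPARA probe set.

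The receptors did not vary as a block. Over the 8 arrays the correlations between tested probe sets of different genes ran from −0.53, between NR1H3 and the brighter HNF4A probe set, to 0.46, between RXRA and the brighter HNF4A probe set; all points share the same 8 livers and the breed difference. The closest patterns among 5417 other genes were those of PSME3 (r = 0.98) and QPCT (r = 0.97) for HNF4A, DBNL and PTOV1 (r = 0.97 each) for NR1H3, LOC100152209 (r = 0.98) and NKIRAS2 (r = 0.92) for RXRA, USP4 (r = 0.94) and EP400 (r = 0.92) for NR1I2, KIF21A (r = 0.98) and DCTPP1 (r = 0.96) for ESR1, and HDAC5 and PSIP1 (r = 0.90 each) for THRB. These are the best of many over 8 arrays and are given as a description.

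Genes that the receptors are known to regulate were listed from textbook knowledge, 1 probe set per gene, the brightest. Each list is described by its counts and its median difference, beside a median of −0.02 and 1.36% called over all 5423 genes tested. Of all these genes 48.2% had a positive difference. Of 14 HNF4A targets tested, 5 fell, 0 rose and 9 did not pass; the median was −0.38, and 12 of the 14 differences were negative. TF, the iron carrier, fell by 0.70 (adjusted p = 0.0245) and APOC3, an inhibitor of triglyceride clearance, by 0.69 (adjusted p = 0.0282). APOA1, the main protein of high density lipoprotein, fell by 0.60 (adjusted p = 0.0362). APOB, the structural protein of very low density lipoprotein, fell by 0.54 (adjusted p = 0.0397, all 4 by limma). These are among the brightest signals of the array, where other probe sets also stood lower in KNP. The tested probe sets within 0.5 log2 units of APOA1 had a median difference of −0.60, and 51.9% of them had a lower difference than APOA1. For APOB these values were −0.54 and 48.9%, for APOC3 −0.60 and 22.7%, and for TF −0.60 and 16.3%. A second tested probe set of TF showed −0.36 (adjusted p = 0.310 by limma). After quantile normalization the median of the list turned to 0.03, 9 of 14 differences were positive and 0 were called, with APOA1 at 0.02 and TF at −0.13. The median deviation of the list from its mean over the 8 animals was −0.22, −0.27, −0.21 and −0.18 in KNP replicates 1 to 4, and between 0.09 and 0.28 in YS.

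Of 17 targets of PXR and CAR, the receptors NR1I2 and NR1I3, 3 fell, 0 rose and 14 did not pass, with a median of −0.43. CYP3A39, a drug-oxidizing cytochrome, lay at 32998 ± 10341 in KNP and 67208 ± 1898 in YS (SD, n = 4 per breed; log2 −1.09, adjusted p = 0.0440 by limma). GSTA1, a glutathione transferase, fell by 0.96 and ALDH1A1, a retinaldehyde dehydrogenase, by 0.88, with adjusted p of 0.0190 and 0.00940 by limma. Tested probe sets of like brightness had median differences of −0.58 for CYP3A39, −0.57 for GSTA1 and −0.58 for ALDH1A1. Of these probe sets 1.49%, 4.17% and 7.58% had a lower difference. A second tested probe set was called for GSTA1 (−1.43) and ALDH1A1 (−0.93, adjusted p = 0.0314 by limma for each). That of CYP3A39 was not called (−0.78, adjusted p = 0.0694 by limma). CYP3A29, the pig counterpart of the human enzyme most used to report PXR activity, showed the other sign. It had intensities of 24266, 27498, 23848 and 30386 in KNP and of 24380, 23406, 22540 and 21249 in YS, overlapping between the breeds (log2 0.21, SE 0.12, adjusted p = 0.451). After quantile normalization CYP3A29 showed 0.58 (adjusted p = 0.0642), the median of the list was −0.16 and 0 of its genes were called. KNP replicate 2 was the lowest animal of the list, with a median deviation of −0.47.

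Of 7 LXR targets, APOE, which clears lipoprotein remnants, fell by 0.52 (adjusted p = 0.0449 by limma), 0 rose and 6 did not pass; the median was −0.28. The tested probe sets of like brightness had a median difference of −0.57, and 67.9% of them had a lower difference than APOE. A second tested probe set of APOE showed −0.51 (adjusted p = 0.158 by limma). After quantile normalization the brighter APOE probe set turned to 0.03. SREBF1, the lipogenic factor that LXR induces, had intensities of 149, 127, 72.8 and 133 in KNP and of 102, 218, 142 and 138 in YS. The breeds overlapped, and its log2 difference was −0.28 (SE 0.29, adjusted p = 0.700), and −0.08 without KNP replicate 3 and −0.10 without YS replicate 2. Of the LXR targets tested, 2 had a positive difference.

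NR1H4 itself was not analysed here, but 4 of its listed targets or neighbours in bile acid handling were tested, and 0 were called. Their median difference was −0.36, and −0.08 without KNP replicate 3. FXR represses CYP7A1, so this median is not a measure of FXR activity. ABCB11 was the 1 positive of the 4, at 0.05 (adjusted p = 0.922 by limma). CYP7A1, the rate-limiting enzyme of bile acid synthesis that bile acids repress through FXR, had intensities of 2930, 2987, 82.5 and 2752 in KNP and of 4106, 3858, 6485 and 4237 in YS. All KNP animals lay below all YS animals, and KNP replicate 3 was far below the rest. The log2 difference was −1.88 (SE 0.91, adjusted p = 0.361 by limma). Without KNP replicate 3 it was −0.66, with an adjusted p of 0.157. SLC10A1, the bile acid uptake carrier, and KNG1, kininogen, also had their lowest value in KNP replicate 3, at 5555 and 6755. Their differences were −0.31 and −0.42 (adjusted p = 0.694 and 0.444). CYP8B1, which sets the ratio of bile acids, was below the filter, at 20.6 to 86.8 in KNP and 7.08 to 77.5 in YS.

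Of 14 PPARA targets 0 rose, 0 fell and all 14 did not pass, with a median of −0.13. CPT1A, the gate for fatty acids into mitochondria, had intensities of 2280, 2754, 6788 and 967 in KNP and of 1015, 943, 1944 and 2270 in YS. KNP replicate 3 was the highest of all animals and KNP replicate 4 the second lowest (log2 0.82, SE 0.50, adjusted p = 0.479). The difference was 0.34 without KNP replicate 3 and 1.27 without KNP replicate 4. ACADVL, which begins the oxidation of very long chains, was also highest in KNP replicate 3, at 4017, while the other KNP animals lay between 1526 and 1870 and the YS animals between 1333 and 2082. FABP1, the fatty acid binding protein of the liver, lay at 31044 ± 7671 in KNP and 50378 ± 7670.2 in YS (SD, n = 4 per breed; log2 −0.72, adjusted p = 0.0955), and its difference was −0.23 after quantile normalization. Of the PPARG targets 4 were on the array and 0 passed the filter.

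Of 6 targets of thyroid hormone, 1 rose, 0 fell and 5 did not pass, with a median of −0.27. The one that rose was ATP2A2, a calcium pump, and only with its brightest probe set, at 4878 ± 789 in KNP and 1485 ± 488 in YS (SD, n = 4 per breed; log2 1.74, adjusted p = 0.0102 by limma); its other probe sets showed 0.19, 0.06 and −0.06. Among the 6 targets 4 differences were negative, the lowest that of ME1 at −1.25 (adjusted p = 0.225 by limma). DIO1, the deiodinase that THRB induces, had intensities of 303, 2667, 478 and 126 in KNP and of 463, 867, 857 and 479 in YS. KNP replicate 2 was the highest and KNP replicate 4 the lowest of all animals, so that the difference of −0.40 (SE 0.70, adjusted p = 0.827) turned to 0.20 without KNP replicate 4. Of 4 oestrogen-responsive genes 0 were called, 3 were positive and 1 negative, and the median was 0.30. The differences were 0.33 for the protease CTSD, 0.27 for the secretory factor XBP1 and 0.47 for TFF1 (adjusted p between 0.279 and 0.666 by limma). AGT showed −0.06 (adjusted p = 0.907 by limma), and 0.28 after quantile normalization. TFF1 lay below the array median on 6 of 8 arrays. Without YS replicate 1 the TFF1 difference was 0.08, and without KNP replicate 3 that of XBP1 was 0.15.

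**Figure D4:**
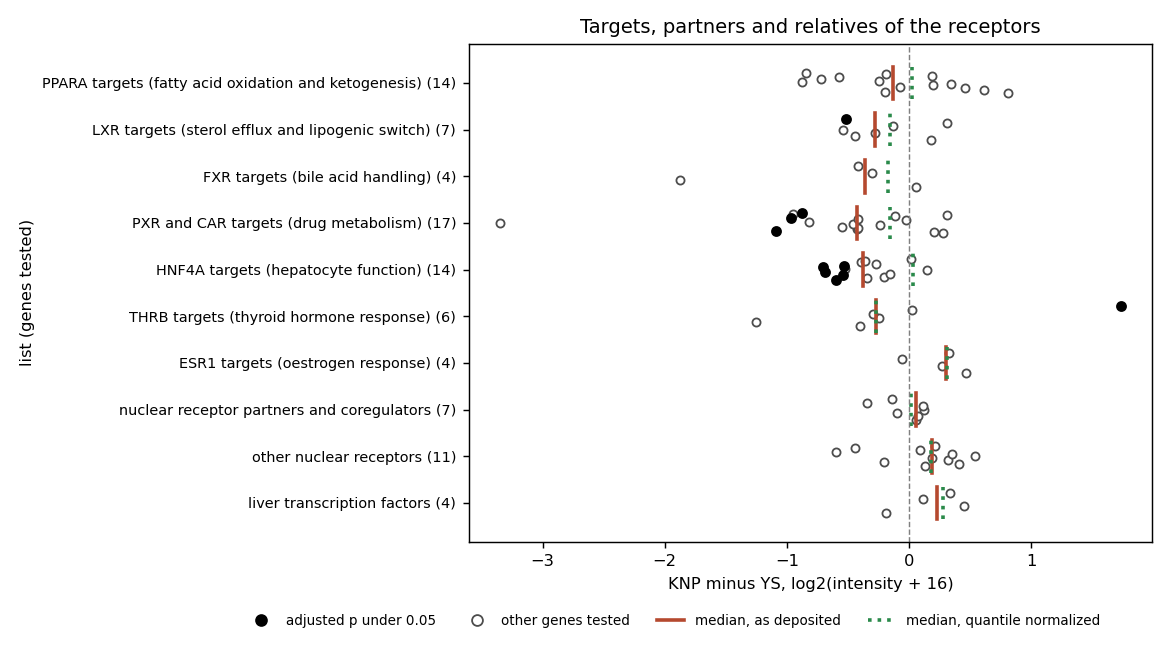
Log2 difference, KNP minus YS, of each tested gene in the lists of targets, partners and relatives, with the number of genes tested in parentheses. Filled points passed the adjusted p of 0.05, red lines give the median as deposited and dotted green lines after quantile normalization. The 10 filled points are 9 genes lower in KNP in the HNF4A, PXR and CAR, and LXR lists and ATP2A2 higher in KNP, and the median of the HNF4A targets lies at −0.38 as deposited and at 0.03 after quantile normalization.

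Of the 10 listed genes called, only ALDH1A1 and ATP2A2 kept their call by limma with each animal left out in turn. The remaining 8 lost it in at least 1 of these fits. After quantile normalization ALDH1A1 showed −0.30 (adjusted p = 0.211 by limma) and ATP2A2 showed 1.71 (adjusted p = 0.0127 by limma). Over all alternative settings ATP2A2 ran from 0.48 to 1.95, with an adjusted p by limma of up to 0.303.

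Among partners and relatives of the receptors 0 were called. Of 7 coregulators and partners tested, 4 were positive and 3 negative, with a median of 0.06. NCOA2 and NCOA4, coactivators, showed 0.12 each, and HDAC3, the deacetylase of the corepressor complex, −0.14 (adjusted p between 0.709 and 0.776 by limma). Other tested probe sets disagreed, at −0.07 and 0.62 for NCOA2 and 0.19 for HDAC3. PPARGC1A, a coactivator of PPARA and HNF4A that rises on fasting, had intensities of 1602, 217, 389 and 736 in KNP and of 1056, 639, 619 and 657 in YS. Both its highest and its lowest animal were KNP, and the difference of −0.35 (SE 0.48, adjusted p = 0.777) turned to 0.09 without KNP replicate 2.

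Of 11 other nuclear receptors tested, 8 were positive and 3 negative, with a median of 0.19. NR3C1, the glucocorticoid receptor, showed 0.54 (SE 0.20, adjusted p = 0.249 by limma), with 394, 346, 393 and 273 in KNP and 297, 250, 226 and 178 in YS. KNP replicate 4 lay within the YS range and the other KNP animals above it. NR0B1, an orphan receptor that acts as a repressor, showed −0.44 and NR5A1, a regulator of steroid hormone synthesis, −0.60 (adjusted p = 0.379 and 0.532). A dim second probe set of NR5A1 showed 0.08. The other tested probe set of NR3C1 showed 0.43, and its dim probe sets, in the fit without the filter, −0.11 and −0.05. Among 4 further liver transcription factors, with a median of 0.23, FOXA2 showed 0.45, CEBPB 0.34 and FOXA1 −0.19 (adjusted p between 0.281 and 0.742).

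Measures of the arrays also differed between the breeds. The highest intensity of an array ran from 50730 to 60066 in KNP and from 83646 to 95919 in YS. The geometric mean of the spiked hybridization controls was 4858 ± 685 in KNP and 8738 ± 953 in YS, and the actin control's 3' signal, divided by its 5' signal as a gauge of RNA breakage, gave 4.83 ± 1.88 in KNP and 10.5 ± 1.45 in YS (SD, n = 4 per breed). Each separated the breeds without overlap (two-sided exact permutation p = 0.0286, the smallest that 4 against 4 allows; adjusted p = 0.0929 over 13 measures), and their part in the differences above was not tested. The same ratio for the GAPDH control overlapped, at 3.04 ± 0.705 in KNP and 3.50 ± 0.407 in YS (SD, n = 4 per breed; two-sided exact permutation p = 0.314). The summed markers of T and NK cells (6 of 8 listed on the array), endothelium (5 of 7), bile duct (4 of 5) and stellate cells (5 of 7) overlapped between the breeds, with two-sided exact permutation p between 0.114 and 0.6 (n = 4 per breed). Any hybridization batch that followed breed cannot be told apart from it.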

How the data were processed

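The authors deposited 1 table of intensity values on a linear scale, for 8 arrays, with GCOS 1.3 named in the submitters' processing notes. No source used here gives the signal algorithm or the background step, and the table has no detection calls. The mean of the values between percentiles 2 and 98 was 499.8 on each array, so the deposited intensities carry a scaling per array. Of 24123 probe sets 124 controls were left out. Values were transformed as log2(intensity + 16), and the lower 40% by mean were left out. The remaining 14399 were fitted with limma 3.58.1 (R 4.3.3; eBayes with an intensity trend, breed as the only term, Benjamini-Hochberg adjustment over all of them, threshold 0.05). Dim receptor probe sets took their values from the same fit over all 23999. The fit was tested on simulated data. Probe sets were named by the array annotation (10099 with 1 symbol, 198 with several, 13826 with none), and the 8 receptors found had the same symbol in the Sscrofa11.1 gene table.

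Array measures were compared by exact permutation over 70 assignments, with Benjamini-Hochberg adjustment over 13 measures. Of each target, partner or relative list, up to 4 genes past the threshold are named, or else the 3 with the smallest p; CYP7A1, CYP8B1, CPT1A, CYP3A29, SREBF1, DIO1 and PPARGC1A are always given, and no probe set used here was named NR0B2. Another gene of this rule is not reported here. The likest genes are the 2 with the highest Pearson r to the brightest probe set of a receptor. The receptors, the lists and these rules were chosen with earlier results of these data known. Alternatives were a pseudocount of 1 or 64, quantile or cyclic loess normalization, median centring, no filter or 60% left out, array weights, leaving out the intensity trend, each animal left out, a block for the replicate number, and the mean of a gene's probe sets. The number of arrays limits the precision. Animals of the 2 breeds that share a replicate number are different pigs.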

Additional observations from a re-analysis of the deposited data

Results flagged for a closer look

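In the receptors and the genes named with them, 90 groups of 4 animals were checked for an animal far from the other 3 on the log2 scale, and 9 had one; chance gives about 1 in 20. Of these 3 belonged to the receptors. KNP replicate 4 had an intensity of 4599 in the brighter HNF4A probe set, while the other KNP animals had 7888 to 8091. PPARG had 12.9 in KNP replicate 1, while its breed mates had 5.43 to 6.15, and 5.31 in YS replicate 2, against 11.1 to 12.1 in the other YS animals, all far below the array medians. Among the other genes, CYP7A1 had 82.5 in KNP replicate 3, while its breed mates had 2752 to 2987. HDAC3 had 714 in the same animal, against 882 to 897. In YS, replicate 2 had 2082 in ACADVL, against 1333 to 1409, and 17794 in SLC10A1, against 13576 to 14153. YS replicate 3 had 2213 in ATP2A2, against 1181 to 1289, and YS replicate 1 had 1056 in PPARGC1A, against 619 to 657.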

How the results depend on the processing

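The count of receptor probe sets called was 0 under the main setting and under each of the 18 alternatives. All probe sets called numbered 149, and 14 after quantile or cyclic loess normalization, 95 after median centring, 35 without the filter, 13 without the intensity trend, 8 with the replicate block, and 8 to 119 with an animal left out; 61 were higher and 88 lower in KNP, against 10 and 4 after either normalization and 57 and 38 after centring. Listed genes called numbered 10, and 1, 1, 6, 1, 1 and 0 in the same order of settings and 2 to 10 with an animal left out. The signs of HNF4A (brighter), NR1H3, RXRA and PPARA held under every alternative run; HNF4A ran from −0.56 to −0.28 and NR1H3 from 0.30 to 0.51. PPARA (brighter) ran from 0.085 to 0.80 with an animal left out. Other receptors turned sign. With quantile and cyclic loess normalization the brighter NR1I2 probe set showed −0.010 and −0.016, PPARG 0.0027 and 0.044, and the brighter THRB probe set 0.023 and 0.018, the last also 0.0079 with the mean of its probe sets. With an animal left out, ESR1 ran from −0.29 to 0.26, the dimmer HNF4A probe set from −0.28 to 0.25, NR1I2 from −0.084 to 0.14 (brighter) and −0.14 to 0.39 (dimmer), and THRB from −0.31 to 0.12 (brighter) and −0.20 to 0.47 (dimmer). After quantile normalization APOA1 and APOE turned to 0.017 and 0.031. With an animal left out, DIO1 ran from −1.21 to 0.20, PPARGC1A from −0.84 to 0.094 and SLC10A1 from −0.57 to 0.062. The median of the HNF4A targets was 0.030 after quantile normalization, −0.13 after cyclic loess and −0.30 after centring, and −0.47 to −0.34 with an animal left out. That of the PXR and CAR targets was −0.16 after either normalization and −0.61 to −0.38 with an animal left out. That of other nuclear receptors was 0.26 after centring and 0.074 to 0.20 with an animal left out. The ranges with an animal left out were −0.43 to 0.0098 for LXR targets, −0.17 to 0.053 for PPARA targets and −0.099 to 0.095 for partners. The cause of these changes was not tested. The replicate numbers did not pair the animals (correlations of deviations −0.02, 0.01, −0.01 and 0.05). The replicate block left the receptors uncalled. Probe sets far below the array medians have no order in level.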
